A study of Homo sapiens with 4 samples.

Results

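PKM, GPI, GAPDH, ENO2, PDK1, VEGFA and CA12 are 7 genes of sugar breakdown and of the response to low oxygen, taken by gene name from a table of m6A peaks. Their identifiers in the table, in that order, are ENSG00000067225, ENSG00000105220, ENSG00000111640, ENSG00000111674, ENSG00000152256, ENSG00000112715 and ENSG00000074410. They carried 16 of the 9466 peaks in that table and are 7 of its 6763 genes. They were chosen on the m6A fold changes and input levels of this same comparison, so every value below is a description and none is a test. The cells were BEAS-2B, an immortalised line of human bronchial epithelium. One arm had received a plasmid that overexpresses METTL16, an RNA methyltransferase, and the other an empty plasmid. Each arm gave 1 input library and 1 library after pull-down with an antibody to N6-methyladenosine (m6A), 4 libraries without replicates, so no difference has a replicate check. METTL16 had 0 lines in the table, so the overexpression itself was not checked here.

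Glycolysis splits glucose into pyruvate, and the enzymes encoded by GPI, GAPDH, ENO2 and PKM catalyse steps of that chain in this order. Pyruvate dehydrogenase then feeds pyruvate into the mitochondria, and PDK1 shuts that entry by phosphorylating the enzyme. When oxygen is scarce, the transcription factor HIF-1 raises glycolytic genes, PDK1, the angiogenic ligand VEGFA and CA12, a carbonic anhydrase of the cell surface that helps to control pH. Glycolysis yields lactate and acid, which epithelial cells, like others, must export.

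HIF-1 binds DNA at a short core, ACGTG or GCGTG. These letters were looked for on both strands of RefSeq promoters (GRCh38.p14, 250 bases before to 50 after a gene's start). Of the 7 genes 6 have entries there, and VEGFA has none. ACGTG or GCGTG was present in 48.4% of all 35116 promoters of that length and ACGTG in 21.4%. The 6 genes have 7 entries, of which 6 held ACGTG or GCGTG and 4 held ACGTG. Windows of 30 bases are shown because HIF targets are known for this core. Capitals mark a core or its reverse complement, and in GAPDH the palindrome CACGTG holds ACGTG on both strands, so its matches overlap.
PDK1, chr2:172556061-172556090, plus strand: cctgctgcccgcCACGTccctCACGTacca
GAPDH, chr12:6535171-6535200, plus strand: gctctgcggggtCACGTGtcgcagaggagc
ENO2, chr12:6914450-6914479, plus strand: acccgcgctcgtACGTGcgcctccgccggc
GPI, chr19:34364818-34364847, plus strand: acactgcctgtaACGTGgaaggtgttcgat
CA12, chr15:63382063-63382092, minus strand: gcggatctcaccCACGCctgccagcagctc
PKM, chr15:72231161-72231190, minus strand: gcacagcagctgCACGCgccgtggctccgg
CA12 holds a second GCGTG, not shown. PDK1 has another promoter entry, with neither core, at the RefSeq gene start from which distances are measured below. The PDK1 entry shown and those of GAPDH, GPI and PKM lie at other starts than that of the RefSeq gene span. A match of letters is no site, and the libraries here measured RNA, not binding to DNA.

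The m6A values are the authors' log2 fold changes, and those above 0 were higher with METTL16 overexpression. Since the table lists only peaks whose p-value lies below 0.05, a peak is called differential here when it also reaches 2-fold, as the authors marked it. Of the 16 peaks 7 were differential, against 43.7% of all listed peaks. The higher ones numbered 2, against 16.5% of all, and the lower ones 5, against 27.2%. Values below 0 were found for 13 of the 16 peaks, against 71.5% of all. The median was -0.49 over the 16 peaks and -0.38 over all listed peaks. The shares of these genes were thus near those of the whole table, and what follows is about single peaks. Of the 16 peaks only 2 were differential with an adjusted p-value below 0.05 in the authors' deposited table, PKM peak 1 and GPI peak 1. Of all listed peaks 7.84% were differential and passed adjustment. At 1.5-fold, 9 of the 16 peaks would be called, against 61.0% of all. At 2-fold after centring on the median of all listed peaks it would be 6, against 42.3%. At least 1 differential peak lay on 4 of the 7 genes, PKM, GPI, PDK1 and VEGFA, against 50.5% of all genes. GAPDH, ENO2 and CA12 had 1 listed peak each, and it stayed under 2-fold. PKM and VEGFA had values on both sides of 0, as did 38.5% of the 1928 genes with 2 or more listed peaks.

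The region labels of the authors differ much in how often a peak was differential. Of the 10 peaks labelled 3'UTR 4 were differential, against 39.5% of all with that label, and 1 of them was higher, against 13.8%. Both intronic peaks were differential and lower, against 85.7% differential and 35.9% higher. The 1 start codon peak was differential and higher, against 38.0% and 12.8%. Neither of the 2 stop codon peaks was differential, against 12.2%, with 4.45% higher, and neither was the 1 peak labelled 5'UTR, against 67.7%, with 22.1% higher.

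**Figure D1:**
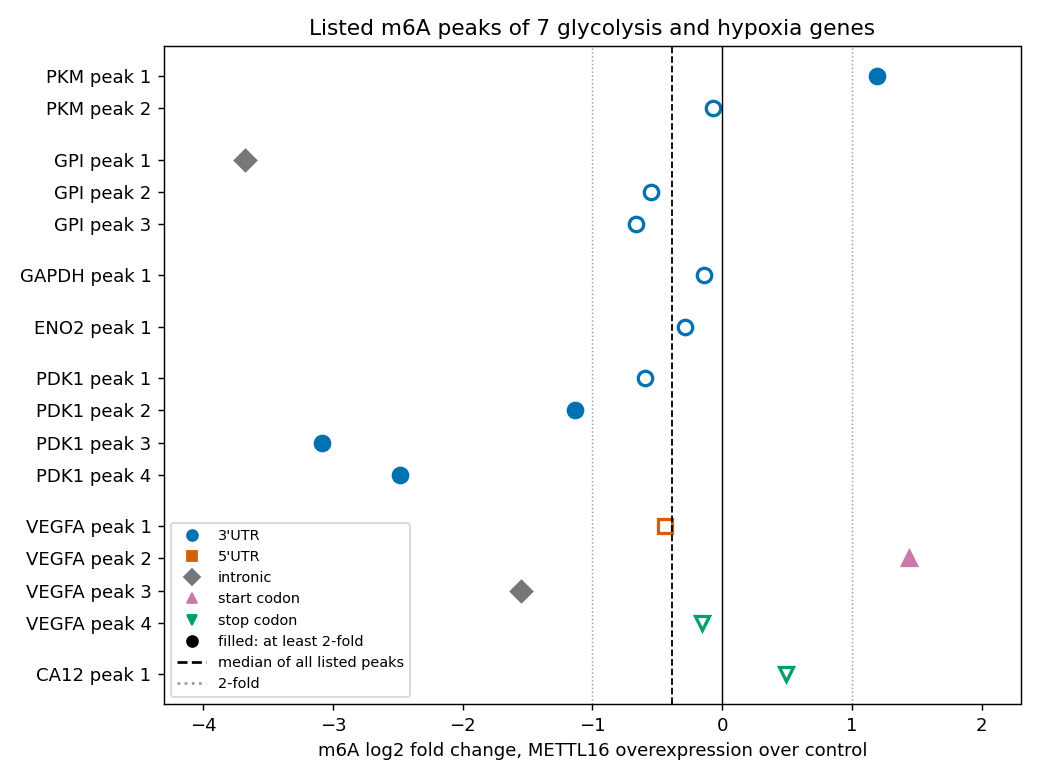
Each point is 1 listed m6A peak of the 7 genes, numbered along the gene, with its log2 fold change (overexpression over control) on the horizontal axis; colour and shape give the authors' region label, filled points are at least 2-fold, dotted lines mark 2-fold, and the dashed line is the median of all listed peaks at -0.38. PKM peak 1 and VEGFA peak 2 are the filled points above 0, and the 5 filled points below 0 belong to GPI, PDK1 and VEGFA.

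PKM encodes pyruvate kinase, which makes pyruvate in the last step of glycolysis and exists as splice forms M1 and M2. Its m6A value was higher at a peak inside the gene and nearly equal at the 3' end. The inner peak (hg38 chromosome 15, 72209618 to 72210076, 459 bases, minus strand) had a log2 fold change of 1.20, or 2.29-fold, with an adjusted p-value of 1.16e-67 in the authors' deposited table. It carries the label 3'UTR through transcript ENST00000567118, but it lies 21.5 kb from the RefSeq start of PKM and ends 10.6 kb before the gene's 3' end. At the 3' end itself, the peak at 72199028 to 72199528, assigned to transcript ENST00000319622, had -0.07 in the authors' deposited table. The difference between the peaks was 1.27 on the log2 scale over a gap of 10.1 kb. Among the 1928 genes with 2 or more listed peaks the median range was 1.16, and 916 had a range at least as wide as PKM.

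Of all 4058 peaks labelled 3'UTR, 475 (11.7%) were as high as the inner PKM peak or higher. Peaks were also split into 10 equal groups by mean input level. In the top group 25 of 924 peaks with any label (2.71%) reached 1.20 or more in the authors' deposited table, PKM included. Of the 419 labelled 3'UTR in that group, 2 (0.477%) did so, but the inner PKM peak lies far from the gene's 3' end. The differential peaks of GPI, PDK1 and VEGFA, and the CA12 peak, are set below against all peaks with their region label. They are also set against those of that label at a similar level. Only 150 listed peaks lay on genes with a mean of at least 100 FPKM, and 5.33% of them were differential. FPKM is a read density, the number of fragments for a given transcript length and a given number of sequenced fragments. Higher differential peaks among those 150 numbered 3 (2.0%): PKM, PABPC1 at 6.11 and YWHAE at 2.24 in the authors' deposited table. PABPC1 and YWHAE were named after their values were seen, and their peaks are labelled intronic. Input FPKM of PKM was 244 with overexpression and 241 in the control, a gap of 1.10%.

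By the log2 m6A value of the peak with the smallest p, the input change and the log2 mean FPKM, the genes nearest to PKM were HSP90AA1, ANXA2 and EEF1A1P5. Their Euclidean distances over these 3 measures, which rest on 2 input libraries and 1 m6A comparison, were 0.51, 0.58 and 0.62. EEF1A1P5 is a processed copy of EEF1A1, so its reads are uncertain.

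GPI encodes glucose-6-phosphate isomerase, which turns glucose 6-phosphate into fructose 6-phosphate. Its 3 listed peaks were all below 0. The intronic peak (chromosome 19, 34392549 to 34392699, 151 bases, plus strand) had a log2 fold change of -3.68, or 12.8-fold lower, with an adjusted p-value of 0.0403 in the authors' deposited table. Large values are common in introns: 85.7% of the 699 intronic peaks were differential, and 48 of them (6.87%) were as low as this one or lower, as were 5 of the 64 at a similar level (7.81%). The peaks labelled 3'UTR, at 34400850 to 34401600 and at 34401975 to 34404810, had -0.54 and -0.66 in the authors' deposited table. The last one runs 2397 bases past the RefSeq end of GPI and overlaps the next gene, PDCD2L, on the same strand. In the authors' deposited table the peak of PDCD2L that begins 174 bases further on stood at 3.23, so values of opposite sign lie side by side there. Input FPKM of GPI was 21.6 with overexpression and 23.1 in the control.

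GAPDH encodes glyceraldehyde-3-phosphate dehydrogenase, the enzyme that makes NADH in glycolysis and a common reference gene in expression assays. It had the highest input level of all 6546 genes with one, in both arms, at 1017 FPKM with overexpression and 1040.2 in the control. Its 1 listed peak, 122 bases at the 3' end of the gene (chromosome 12, 6538253 to 6538374, plus strand, 3'UTR), stood at -0.14 on the log2 scale in the authors' deposited table. That is a 1.10-fold difference, and its sign turned when values were centred on the median of all peaks. Processed copies of GAPDH are numerous in the genome, so its reads are uncertain. On the opposite strand, ENSG00000269968 has a listed peak that shares 118 bases with it, at -0.30 in the authors' deposited table and with input levels of 0.019 and 0.013 FPKM. Whether these peaks share reads was not tested, and the use of strand in counting is not given in the sources used here.

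ENO2 encodes the gamma form of enolase, best known from neurons, which makes phosphoenolpyruvate, the substrate of pyruvate kinase. Its 1 listed peak, at the 3' end (chromosome 12, 6923467 to 6923692, plus strand), stood at -0.28 on the log2 scale in the authors' deposited table, close to the median of all peaks. Input FPKM of ENO2 was 21.0 with overexpression and 25.2 in the control. In the control arm it was above GPI and in the overexpression arm below it, and this was the one change in the order of the 7 input levels.

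PDK1 encodes pyruvate dehydrogenase kinase 1. All 4 of its listed peaks carried the label 3'UTR, through transcript ENST00000282077, and were below 0, and 3 of them were differential. Despite that label, they end 118.6 to 126.5 kb before the 3' end of the RefSeq gene. Along the gene (chromosome 2, plus strand) the log2 fold changes in the authors' deposited table were -0.60 at 172596824 to 172597849, -1.13 at 172598674 to 172599024, -3.09 at 172605374 to 172605474 and -2.48 at 172605574 to 172605699. The lowest values were those of the shortest peaks, of 101 and 126 bases, which lie 99 bases apart, 50.0 kb from the RefSeq start. Of all peaks labelled 3'UTR 22.8% were as low as -1.13, 4.24% as low as -3.09 and 7.47% as low as -2.48. Of those at a similar level the shares were 31.0%, 5.97% and 10.4%. Neither of the 2 shortest PDK1 peaks has an adjusted p-value in the authors' deposited table, and that is so for 9.45% of all listed peaks. The other adjusted p-values there were 0.0612 and 0.133, so no PDK1 peak passed 0.05 after adjustment. Input FPKM of PDK1 was 3.08 with overexpression and 3.22 in the control.

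**Figure D2:**
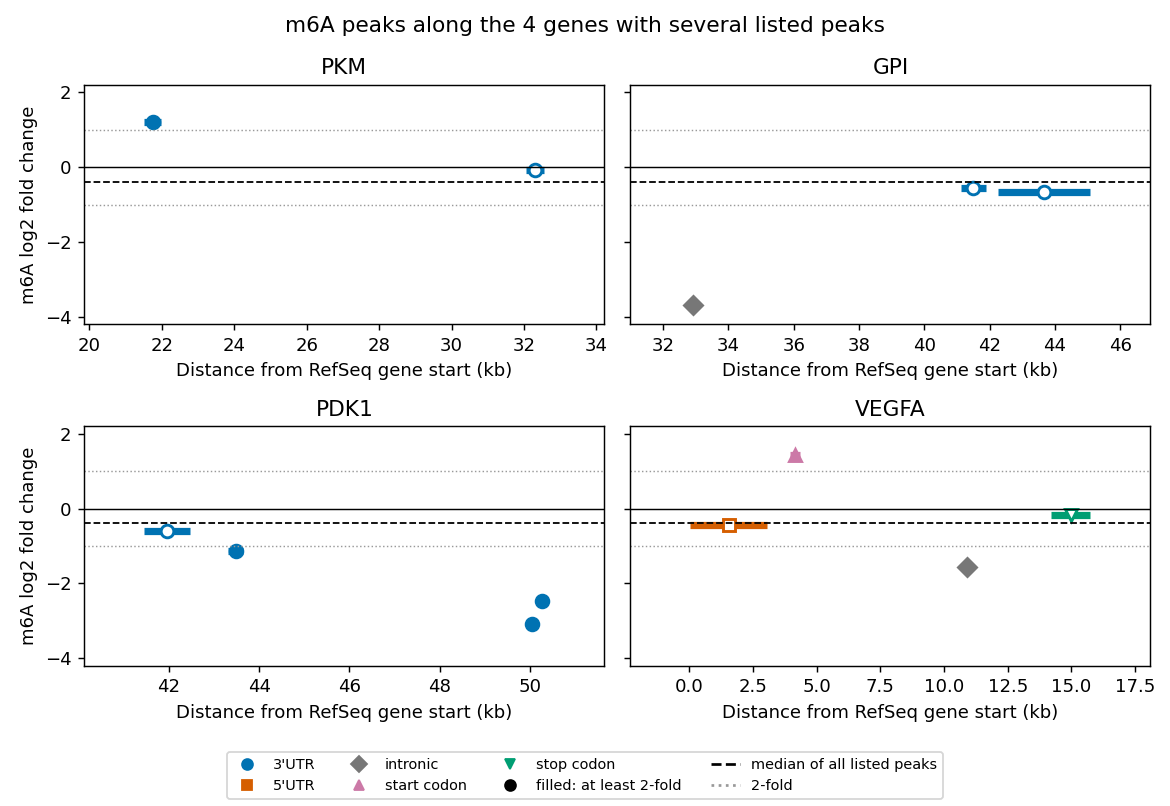
For PKM, GPI, PDK1 and VEGFA, each bar spans 1 listed peak by distance from the RefSeq gene start in kb (horizontal axis), at the height of its m6A log2 fold change (vertical axis); markers and fills give the region label and the 2-fold mark, and the dashed line is the median of all listed peaks. PKM has 1.20 inside the gene and -0.07 at its end, the PDK1 peaks run from -0.60 to -3.09, and VEGFA has peaks at 1.44 and -1.55.

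VEGFA encodes vascular endothelial growth factor A, the main signal for new blood vessels under low oxygen. It carried differential peaks in both directions, which 13.4% of the 1928 genes with 2 or more listed peaks did. The higher one, labelled start codon through transcript ENST00000230480 (chromosome 6, 43774157 to 43774557, 401 bases, plus strand), begins 3.95 kb from the RefSeq start. Whether a start codon lies there was not checked. Its log2 fold change was 1.44, or 2.72-fold, in the authors' deposited table. Among 516 peaks labelled start codon, 42 (8.14%) were that high or higher, and of the 57 at a similar level 4 (7.02%). An intronic peak of 101 bases (43781081 to 43781181) had -1.55 in the authors' deposited table, and 284 of the 699 intronic peaks (40.6%) were that low or lower, as were 35 of the 84 at a similar level (41.7%). Their adjusted p-values were 0.116 and 0.119 in the authors' deposited table.

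The longer VEGFA peaks were closer to 0. The peak labelled 5'UTR (43770258 to 43773257) begins 47 bases after the RefSeq start and had -0.44 in the authors' deposited table, and the stop codon peak (43784406 to 43785956) had -0.16. Both of those have an adjusted p-value below 0.05, at 0.0181 and 0.0115 in the authors' deposited table. The start codon peak begins only 899 bases after the end of the 5'UTR peak, yet their values differed by 1.88 on the log2 scale.

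CA12 encodes carbonic anhydrase XII, which turns carbon dioxide and water into bicarbonate and a proton outside the cell. Its 1 listed peak, at the stop codon (chromosome 15, 63323477 to 63326352, minus strand), had a log2 fold change of 0.49, or 1.40-fold, with an adjusted p-value of 0.146 in the authors' deposited table. Of the 1372 stop codon peaks 126 (9.18%) were that high or higher, and of the 111 at a similar level 23 (20.7%). Among the 7 genes CA12 had the lowest input level, 0.652 FPKM with overexpression and 1.29 in the control. Its m6A value was thus higher where its RNA was lower, and the sources used here do not state whether the m6A value is relative to input.

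**Figure D3:**
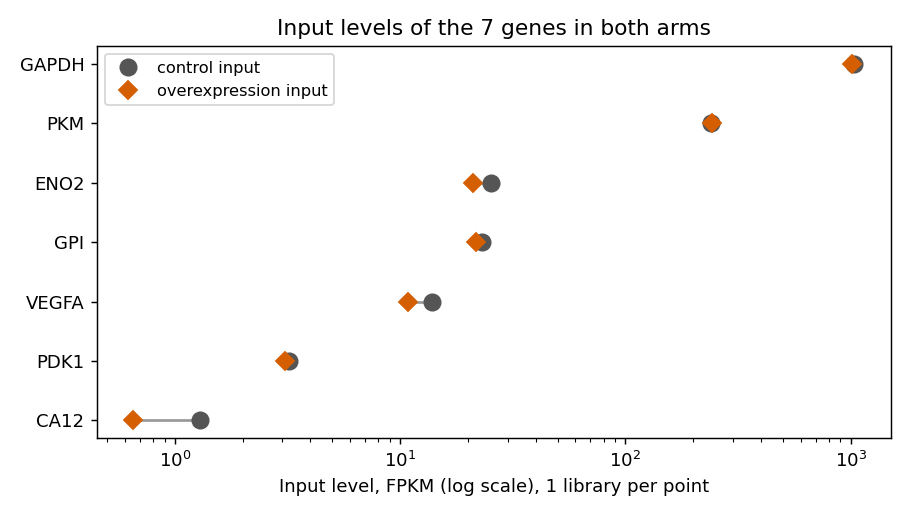
Input levels of the 7 genes in FPKM on a log axis, with 1 library per point: circles are the control input and diamonds the overexpression input. GAPDH at 1017 and 1040.2 and PKM at 244 and 241 nearly coincide, and CA12 at 0.652 and 1.29 has the widest gap.

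Input levels of PKM, GPI, GAPDH and PDK1 were within 6.2% of the control, while that of ENO2 was 16.9% lower, that of VEGFA 21.5% lower and that of CA12 49.6% lower. Changes were computed as log2 of (FPKM + 1) with overexpression over (FPKM + 1) in the control, which understates those of low genes. A change below 0 was found for 6 of the 7 genes, against 57.9% of the 5467 genes that reached an FPKM of 1 in one input or the other. None reached 2-fold lower or higher, which 0.146% of those genes did in each direction. CA12 had -0.47 on this scale, and its plain FPKM ratio was 0.504. For VEGFA, with 10.9 FPKM with overexpression and 13.9 in the control, the change was -0.32, and for ENO2 it was -0.26. GPI had -0.09, PDK1 -0.05, GAPDH -0.03 and PKM 0.02, while the median of all 5467 genes was -0.02.

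Genes of similar level give a scale for these changes. Of 2146 genes whose mean FPKM lay within 2-fold of VEGFA, 19 (0.885%) had a change as low or lower. For ENO2 this was 29 of 1331 genes (2.18%), and for CA12 15 of 696 (2.16%). The changes of GPI, PDK1 and PKM lay well inside the spread of their neighbours, with 26.1%, 44.9% and 52.3% of genes at or below. In the authors' deposited table the expression p-values were 0.157 for CA12, 0.642 for VEGFA and 0.734 for ENO2, with a q-value of 1 for each of the 7 genes. Those values compare single libraries, not conditions. In such bulk RNA, fewer cells that express a gene and less RNA per cell cannot be told apart.

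Short peaks had the larger m6A differences. Of the 16 peaks 5 were at most 200 bases long and 4 of those were differential, against 79.5% of the 1414 listed peaks of that length. Of the 11 longer ones 3 were differential, against 37.4% of 8052. The short differential peaks of GPI, PDK1 and VEGFA were all lower with overexpression, and the GAPDH peak was the short one under 2-fold. These genes were chosen on such values, and the share of lower peaks among all listed peaks of that length was not counted. The coverage of the peaks was not analysed here, and its part in these values was not tested.

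**Figure D4:**
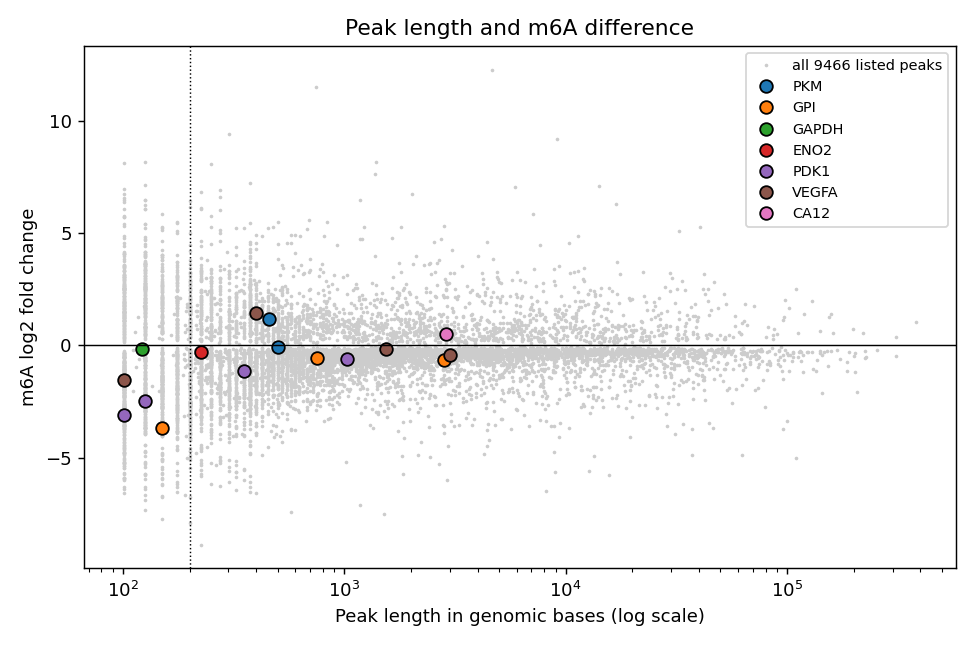
Peak length in genomic bases (horizontal log axis) against m6A log2 fold change for all 9466 listed peaks in grey and the 16 peaks of the 7 genes in colour, with a dotted line at 200 bases. Of the 5 coloured points left of that line 4 lie at -1.55 or lower, and those to its right lie between -1.13 and 1.44.

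The other enzymes of the glycolytic chain had m6A values of both signs, and 1 of their 10 peaks was differential. Of 23 glycolytic enzyme genes 10 had a line in the table, and their 17 peaks included 1 higher and 2 lower differential ones, on PKM, GPI and PGAM2 (17.6% differential, against 43.7% of all listed peaks). PGAM2, a muscle form of phosphoglycerate mutase named after its values were seen, stood at -1.24 in the authors' deposited table with input levels near 0. Hexokinase 1, encoded by HK1, traps glucose in the cell, and its 3 peaks labelled 3'UTR had 0.48, 0.81 and 0.65 in the authors' deposited table. The peaks of HK2, its inducible relative, named after its values were seen, had -0.42 and -0.22 in the authors' deposited table. ENO1, the widely expressed enolase, stood above its relative ENO2, with 0.36 and 0.45 at exonic peaks in the authors' deposited table.

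PGK1, phosphoglycerate kinase, had -0.22 in the authors' deposited table and 66.9 against 71.7 FPKM. Represented by the peak with the smallest p of each gene, the median m6A value of these 10 genes was -0.18, against -0.40 over all genes. Of the 9 that reached an FPKM of 1, 7 were lower and 2 higher with overexpression, with a median input change of -0.08. Both medians include PKM, GPI, GAPDH and ENO2, which were chosen on these values. Without them, 4 of the other 5 enzymes at that level were lower and 1 higher, with a median of -0.08. The m6A median without them was not computed. Over all 5467 genes 57.9% were lower, with a median of -0.02. ENO1 had 203 against 215 FPKM and HK1 32.5 against 34.9. Of 8 glucose transporter genes only SLC2A3 was in the table, at -0.54 in m6A in the authors' deposited table and with 6.29 against 5.93 FPKM.

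Among 11 regulators of glycolysis, 5 were in the table with 1 peak each, all of them below 0, against 71.5% of all listed peaks. The differential one (20.0%, against 43.7% of all), on PFKFB2, stood at -1.31 in the authors' deposited table, and this gene was named after its values were seen. PFKFB3, which makes the activator fructose 2,6-bisphosphate, had -0.28 in the authors' deposited table and 8.10 against 8.71 FPKM. The kinase ADPGK had -0.33 and the phosphatase MINPP1 -0.66 in the authors' deposited table. Input changes were below 0 for 3 of the 5 genes, against 57.9% of all, with a median of -0.07.

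Of 21 genes of lactate handling and pyruvate entry, where PDK1 belongs, 12 were in the table. The 11 of them at an FPKM of at least 1 had input changes from -0.20 to -0.02, all below 0 against 57.9% of all genes, with a median of -0.07. The 19 peaks of the 12 genes included 2 higher and 9 lower differential ones (57.9% differential, against 43.7% of all, with 16.5% higher and 27.2% lower). PDK1, chosen on these values, held 3 of the lower ones. Without it the other 11 genes had 15 peaks, of which 2 were higher and 6 lower at 2-fold. In input, the 10 of those genes at an FPKM of at least 1 were all lower, with a median of -0.09. In the authors' deposited table PDHA1, the subunit of pyruvate dehydrogenase that PDK1 phosphorylates, stood at -1.90 and -1.69 at peaks labelled 3'UTR. Other subunits of that complex went either way. DLD had 3.05 at its stop codon with no adjusted p-value, and DLAT had -1.08 in the authors' deposited table. PDHB, named after its values were seen, had 1.69 at an exonic peak and -0.38 in its 3'UTR in the authors' deposited table.

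LDHA, the lactate dehydrogenase subunit that makes lactate, stood at -1.75 in an intron and at -0.13 in the 3'UTR in the authors' deposited table. Its input level was 199 FPKM with overexpression and 202 in the control. Input FPKM was 10.2 against 11.9 for DLD, 15.3 against 17.2 for the phosphatase regulator PDPR and 7.27 against 8.12 for DLAT.

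In the pentose phosphate branch, 6 of 11 genes were in the table, with 1 differential peak among 9 (11.1%, against 43.7% of all). That peak, intronic and on the 6-phosphogluconolactonase gene PGLS, had 1.74 in the authors' deposited table. Input was lower for 5 of the 6 genes, against 57.9% of all, with a median change of -0.12, such as PGD with 20.8 against 23.7 FPKM. H6PD had 1.83 against 2.16 FPKM and PRPS2 8.70 against 9.60.

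Over 10 of 19 genes of HIF factors and oxygen sensors the median m6A value of the peak with the smallest p was 0.22, against -0.40 over all genes. Of their 15 peaks 2 were differential (13.3%, against 43.7% of all). VHL, the ubiquitin ligase component that marks HIF for degradation, had a 3'UTR peak at -1.14 with an adjusted p-value of 0.0024 in the authors' deposited table. ARNT2, a partner of HIF alpha subunits, had an exonic peak at 1.97 in the authors' deposited table and 1.11 against 1.71 FPKM. EGLN1, the main prolyl hydroxylase that senses oxygen, had 0.54 in the authors' deposited table and 11.8 against 13.9 FPKM. HIF1A itself, named after its values were seen, had an exonic peak at 0.60 and an intronic one at -0.71 in the authors' deposited table, with 88.0 against 82.2 FPKM. EP300, a coactivator of HIF, had 17.8 against 15.6 FPKM, and 6 of the 10 genes were lower in input, against 57.9% of all.

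Of 37 HIF target genes, VEGFA and CA12 among them, 22 were in the table. Their 33 peaks included 3 higher and 8 lower differential ones, 33.3% against 43.7% of all peaks. Without VEGFA and CA12 the other 20 genes had 28 peaks, of which 2 were higher and 7 lower at 2-fold. In the authors' deposited table WSB1 had -4.48 and -2.27 at peaks labelled 3'UTR, with adjusted p-values of 0.0049 and 0.0101. In the authors' deposited table the histone demethylase gene KDM4C had 5.88 in its 3'UTR and -1.70 in an intron, and its relative KDM3A had -5.71 in an intron. The values 5.88 and -5.71 have no adjusted p-value in the authors' deposited table. For input, 16 of the 22 were lower and 6 higher, against 57.9% lower of all, with a median of -0.08, and CA12 and VEGFA were the lowest of them. Without those 2 genes the median of the other 20 was -0.05. ANGPTL4, a lipase inhibitor induced by low oxygen, went the other way with 5.35 FPKM with overexpression and 3.13 in the control, a change of 0.62. ERO1A had 13.0 against 15.2 FPKM and the transferrin receptor gene TFRC 18.1 against 21.1.

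**Figure D5:**
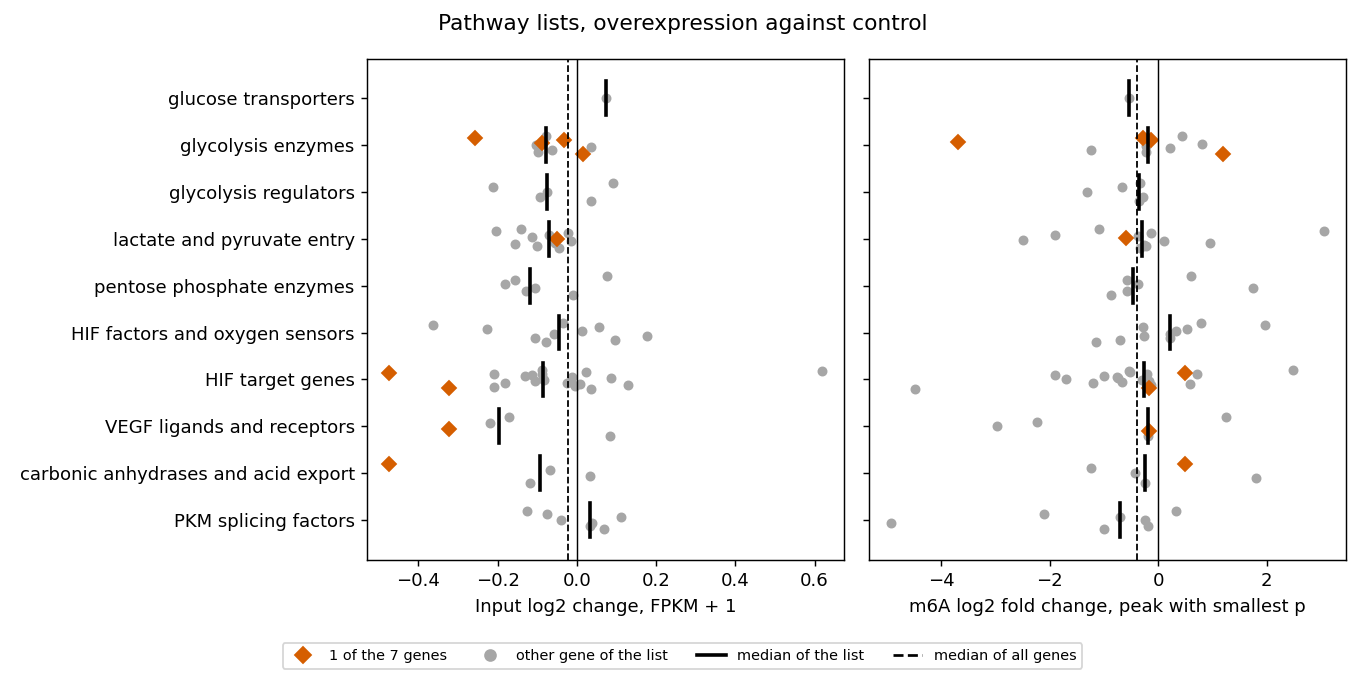
Genes of the 10 pathway lists, with the input log2 change (FPKM + 1, genes that reached an FPKM of 1) on the horizontal axis of the left panel and the m6A log2 fold change of the peak with the smallest p on that of the right panel; diamonds are the 7 genes, bars are list medians and dashed lines the medians of all genes. CA12 at -0.47 and VEGFA at -0.32 lie at the low end of the HIF targets in input, and ANGPTL4 at 0.62 at the high end.

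Of 10 genes of VEGF ligands and receptors 5 were in the table, VEGFA included. Of their 11 peaks 2 were higher and 3 lower at 2-fold (45.5% differential, against 43.7% of all). Without VEGFA, chosen on these values, the other 4 genes had 7 peaks, of which 1 was higher and 2 lower. VEGFC, a ligand of lymphatic vessels, had -0.19 at its stop codon in the authors' deposited table and 44.3 against 41.8 FPKM. The coreceptor gene NRP1 had a peak labelled 3'UTR at 1.25 in the authors' deposited table and 19.6 against 22.2 FPKM. NRP2 had an exonic peak at -2.23 in the authors' deposited table and 0.790 against 1.08 FPKM. PGF, placental growth factor, also named after its values were seen, had -2.96 at a peak labelled 5'UTR, with no adjusted p-value in the authors' deposited table, and 0.769 against 0.554 FPKM.

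Of 20 genes of carbonic anhydrases and acid export, 5 were in the table, and their 7 peaks included 2 higher and 2 lower differential ones (57.1% differential, against 43.7% of all, with 16.5% higher and 27.2% lower). CA13, an intracellular carbonic anhydrase, stood at -1.23 and 1.97 at peaks labelled 3'UTR in the authors' deposited table. The bicarbonate transporter gene SLC4A7 stood at 1.81 and -1.69 in exons in the authors' deposited table. Their input levels were close, with 1.30 against 1.40 FPKM for CA13 and 4.93 against 4.80 for SLC4A7.

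The 7 genes listed for the choice between the M1 and M2 forms of PKM, splicing factors and the kinase NEK2, were all in the table. Of their 12 peaks 0 were higher and 3 lower at 2-fold (25.0% differential, against 43.7% of all, with 16.5% higher and 27.2% lower). PTBP2 had -4.92, with no adjusted p-value, HNRNPA2B1 had -2.09, and SRSF3 was just past 2-fold lower, all at peaks labelled 3'UTR in the authors' deposited table. Their input levels were close, with 35.0 against 36.9 FPKM for HNRNPA2B1, 53.2 against 58.1 for HNRNPA1 and 7.08 against 6.49 for NEK2. The table holds no splice form levels, so the M1 and M2 forms of PKM could not be compared.

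Of 10 epithelial markers 3 were in the table: KRT18 with 59.0 and 59.6 FPKM, KRT8 with 54.2 and 46.1, and ITGB4 with 0.694 and 0.780 with overexpression and in the control. VIM, a mesenchymal marker, had 510.0 and 499 FPKM. CD68, listed as a leukocyte marker but also a lysosomal protein of other cells, had 57.7 and 41.6 FPKM. No ciliated, secretory or endothelial marker of the lists was in the table. A gene without a listed peak has no line there, so an absent marker says nothing of its level.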

How the data were processed

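RNA of BEAS-2B cells was depleted of ribosomal RNA, fragmented and sequenced as input and after m6A immunoprecipitation, per the labels' protocols. The submitters' processing notes name fastp 0.19.4 and hg38. The sources used here do not give the aligner, peak caller, expression program or use of strand. The authors deposited 1 table with, per peak, a log2 fold change, p-value and adjusted p-value of m6A and the peak length in genomic bases. Per gene, the authors deposited FPKM of both input libraries, their ratio (fold change) and an expression p-value and q-value. Depth is unknown and levels of the immunoprecipitated libraries were not analysed here. With 1 library per group no test was made, and the authors' p-values compare single libraries.

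Members were taken by gene name. The 7 genes, the 10 lists and the naming rule were chosen with earlier results of these data known. The rule took the 7 genes and, per list, up to 3 others with the largest input change (FPKM of 1 or more in either input) and up to 3 with the largest differential peak (in both inputs), plus the genes nearest to PKM. Input changes used a pseudocount of 1. Alternatives were other pseudocounts, centring, thresholds and one value per gene by the median of its peaks. Gene spans and promoters are RefSeq's (GRCh38.p14). Calculations used Python 3.11.15, pandas 2.3.3 and matplotlib 3.10.9, and counting was tested on simulated data.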

Additional observations from a re-analysis of the deposited data

How the results depend on the processing

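The sign of several small m6A values depended on the median on which they were centred. Centred on the median of all listed peaks, on that of peaks at a similar expression level (10 equal groups) and on that of the same region label, the 3' end peak of PKM turned to 0.31, 0.11 and 0.35, GAPDH to 0.24, 0.039 and 0.28, and the VEGFA stop codon peak to 0.22, 0.16 and 0.13. ENO2 turned to 0.10 and 0.14 under the centring on all peaks and on the region, and the VEGFA 5'UTR peak to 0.37 under that on the region. Of the 48 recentred peak values, these 12 changed sign, 4 dropped below 2-fold (the PDK1 peak at -1.13 under each centring and the VEGFA intronic peak under that on the region), CA12 passed 2-fold once, at 1.34, and 31 kept sign and side. The inner PKM peak and the VEGFA start codon peak stayed above 2-fold under each centring. At an adjusted p below 0.05 the differential peaks were 1 higher (PKM) and 1 lower (GPI), since 2 of the 7 have no adjusted p and 3 miss the threshold. At 1.5-fold and after centring these counts stayed within 1.5 times of 2 and 5. All 21 alternative input changes of the 7 genes and all 20 alternative list medians of input kept their sign, though CA12 went from -0.47 to -0.89 with a pseudocount of 0.1 and to -0.99 as a plain ratio.

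Centring on all peaks moves each m6A list median by construction: glycolytic enzymes to 0.21, regulators to 0.024, lactate and pyruvate entry to 0.086, HIF targets to 0.13, the VEGF system to 0.20 and carbonic anhydrases to 0.15, all from below 0, and HIF factors to 0.60, pentose phosphate enzymes to -0.088, SLC2A3 to -0.16 and splicing factors to -0.31. With the median of all peaks of a gene in place of the peak with the smallest p, lactate and pyruvate entry had -0.54, the VEGF system -0.30, splicing factors -0.33 and carbonic anhydrases 0.058. No paired analysis was possible because each group holds 1 library, and no library could be left out. Depth is unknown, so the precision of low levels such as that of CA12 cannot be given.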

Other observations

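The peaks of several of the 7 genes share bases with other annotated features. The VEGFA peak labelled 5'UTR spans a listed peak on the opposite strand without a gene name (chromosome 6, 43770428 to 43770616), whose log2 fold change was -0.36 in the authors' deposited table, against -0.44 for VEGFA. The input level of PDCD2L, the gene after GPI, was 1.46 FPKM with overexpression and 1.98 in the control, and its peaks stood at 3.23 and 1.39 in the authors' deposited table. RefSeq also places LOC124902868 over the ENO2 peak and LOC124903506 over the CA12 peak. Whether reads are shared at these places was not tested.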
